A study of Mus musculus with 167 samples.

Results

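Livers of 15 Htt knock-in mice that carried the Q80 or the Q140 allele were compared with 16 control livers at 10 months of age, to ask whether microRNA levels in a peripheral organ differ between the expanded alleles and controls. The samples were chosen by their titles: 7 livers titled HET (Q80) at 10 months, 8 titled HET (Q140), 8 titled HET (Q20) and 8 titled WT, 31 of the 167 livers in the series. All mice were on a C57BL/6 background. Each HET mouse carried 1 wild-type mouse Htt allele and 1 engineered allele with a human HTT exon 1, and the line name gives the nominal number of CAG repeats, 80 or 140 in the expanded lines and 20 in the control line. WT mice were littermates of the Q20 line and carried no engineered allele, so neither expanded line had littermate controls of its own. Q80 and Q140 libraries each carried housing codes of their own, 1 per sex, while Q20 and WT shared theirs, so allele, line and housing code cannot be told apart. By label the groups held 4 females and 3 males (Q80), 4 and 4 (Q140), 5 and 3 (Q20) and 4 and 4 (WT). Both contrasts use the same 16 control livers, so they are not independent of each other.

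A microRNA gene is transcribed as a long primary RNA from which a hairpin precursor is cut, and the mature strand of that hairpin guides an Argonaute protein to messenger RNAs. Targets are chosen mostly by the seed, bases 2 to 8 of the mature strand, so microRNAs with 1 seed tend to share targets. Huntington's disease is caused by a long CAG repeat in HTT and is known for loss of striatal neurons, while the protein is made in nearly all tissues, liver included. Whole liver holds hepatocytes together with endothelium, bile duct epithelium, stellate cells, leukocytes and the blood in its vessels, and microRNAs of all of them enter 1 library. In such bulk samples fewer cells of a type and less RNA per cell cannot be told apart.

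Reads had been assigned to precursors, and the level of a precursor is given in CPM, its count scaled to the same total in every library. Of the 1626 precursors in the table, 314 had at least 10 counts in at least 7 livers of this age and were tested. The mature sequences below belong to precursors with the smallest p-values in the Q80 contrast (the first 3) and in the Q140 contrast (the last 5), and are from RefSeq on GRCm38.p6. They read 5′ to 3′ with the seed in capitals.
mmu-miR-451a: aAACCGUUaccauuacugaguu
mmu-miR-144-3p: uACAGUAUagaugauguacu
mmu-miR-10b-5p: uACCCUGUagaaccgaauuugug
mmu-miR-100-5p: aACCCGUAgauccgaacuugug
mmu-miR-99b-5p: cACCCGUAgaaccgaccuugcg
mmu-miR-125a-5p: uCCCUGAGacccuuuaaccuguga
mmu-miR-379-5p: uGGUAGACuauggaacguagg
mmu-miR-27b-3p: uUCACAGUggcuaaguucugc

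The total count was 2.92 ± 0.942 M per library in Q80 (SD, n = 7), 2.83 ± 0.774 M in Q140 (SD, n = 8) and 3.19 ± 0.605 M in controls (SD, n = 16; M stands for mega), and no difference from controls was detected (two-sided exact permutation tests, p = 0.405 and p = 0.225). The library labelled Q20 10 month F1 carried the housing code of the males and had a sex score of 0.604, the mean standardized level of 20 precursors chosen in other genotypes. Scores of the 14 males ran from 0.567 to 1.17, and those of the remaining 16 females from -1.14 to -0.643. The library WT 10 month M4 stood apart in a network of Euclidean distances, with a standardized connectivity of -6.83 against a threshold of -5. Both are controls, and some of the results below are given with and without 1 of them. Each library name also carries an L code, whose meaning the labels do not give and which served as the batch covariate. All 3 Q80 males carried code L2 and all 4 Q80 females L3 or L8, so sex and L code cannot be told apart within Q80, and L1 held 1 Q20 and 1 WT liver only.

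No precursor passed the test in either contrast. By edgeR's quasi-likelihood test with labelled sex and L code as covariates and Benjamini-Hochberg adjustment over all 314, 0 were called for Q80 at an adjusted p under 0.05 (0% of those tested), with a smallest adjusted p of 0.0555, and 0 were called for Q140 (0%), with a smallest adjusted p of 0.73. At an unadjusted p under 0.05 there were 10 precursors for Q80 (3.18%), of which 8 were lower (2.55%) and 2 higher (0.637%) than controls. For Q140 there were 17 (5.41%), of which 7 were lower (2.23%) and 10 higher (3.18%). Without WT 10 month M4 the Q140 counts were 15 lower (4.78%) and 14 higher (4.46%), and with RLE scaling 3 lower and 13 higher. DESeq2 on the same counts called 4 for Q80, which were Mir451a, Mir486, Mir10b and a transcript without a symbol, ENSMUST00000175234, and 0 for Q140, with 15 and 17 at an unadjusted p under 0.05. In both contrasts most precursors were bounded well: the 95% confidence interval of the log2 change lay within a change of 2-fold either way for 227 precursors in Q80 and 237 in Q140, and within 1.5-fold for 155 and 164. No precursor had CPM values that separated Q80, or Q140, from all 16 controls without overlap (0 of 314 each, 0%). The mean of both alleles against controls gave 0 calls with edgeR (0%; 13 at an unadjusted p under 0.05, 4.14%; 2 calls with DESeq2), and the joint test of any difference gave 0 (0%; 12 at an unadjusted p under 0.05, 3.82%; 1 call with DESeq2). Within the controls, Q20 against WT gave 0 calls with edgeR (0%; 4 at an unadjusted p under 0.05, 1.27%; 1 call with DESeq2).

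**Figure D1:**
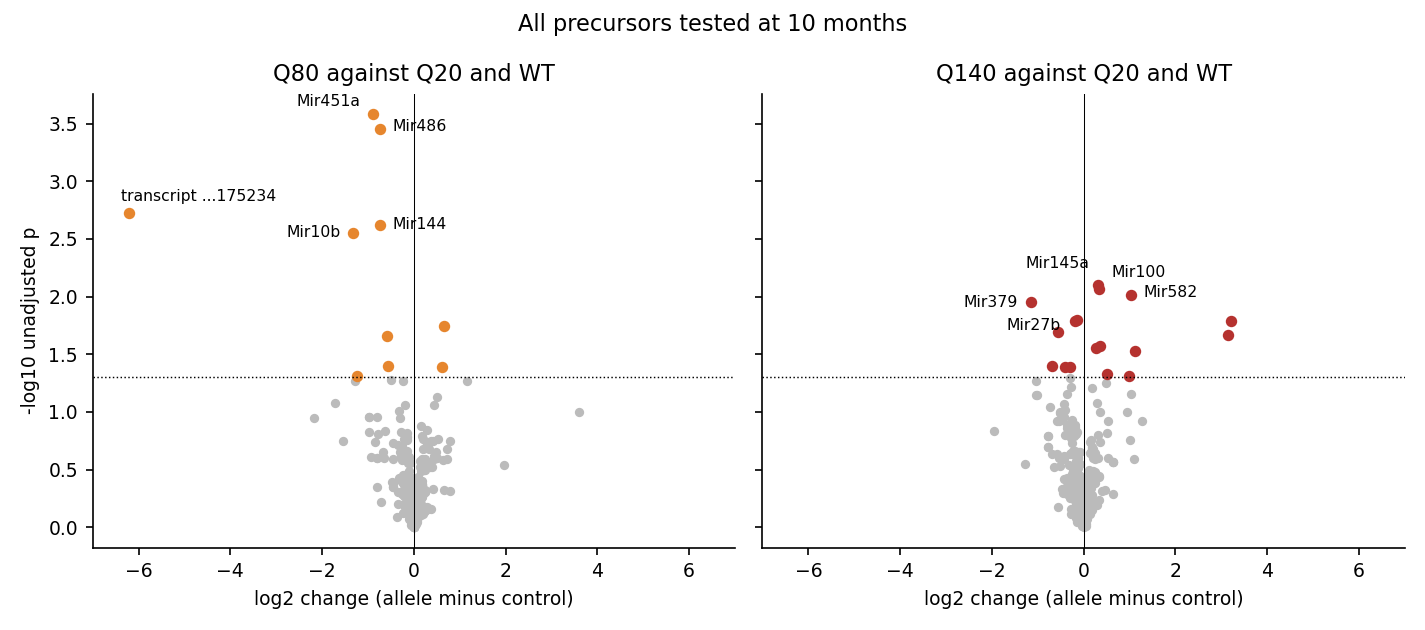
Each point is 1 of the 314 precursors, with the log2 change from controls on the x axis and minus log10 of the unadjusted p on the y axis, for Q80 on the left and Q140 on the right. Points above the dotted line (p of 0.05) are coloured, 10 in Q80 and 17 in Q140, the 5 smallest p are named, and Mir451a, Mir486 and Mir144 stand at the upper left of the Q80 panel.

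The pair of precursors closest to a call in Q80, Mir451a and Mir486, belong with Mir144 to the microRNAs of red blood cells. Mir451a and Mir144 come from 1 locus on chromosome 11 that is switched on during red cell formation, and miR-451a is the abundant microRNA of mature erythrocytes. Mir486 lies in an intron of Ank1, the gene of the red cell and muscle membrane protein ankyrin-1. All 3 were lower than controls in Q80 at an unadjusted p under 0.05, and 2 of the 3, Mir451a and Mir486, were so in Q140 as well, the only precursors below that threshold in both contrasts. None of these differences passed the adjusted threshold in edgeR, while DESeq2 called Mir451a and Mir486 in Q80.

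Mir451a (ENSMUST00000093557) lies between genes on chromosome 11 of mm10, from 78073170 to 78073241 on the plus strand. It ranged from 462 to 1136 CPM in the 7 Q80 livers with a median of 610. In the 8 Q140 livers it ranged from 423 to 1429 with a median of 832, and in the 16 controls from 524 to 2024 with a median of 1117. The ranges overlapped, but 6 of 7 Q80 and 7 of 8 Q140 livers lay below the control median. The log2 change was -0.89 ± 0.20 (SE; 95% interval -1.32 to -0.47) in Q80 and -0.55 ± 0.22 (-1.01 to -0.09) in Q140, with edgeR adjusted p-values of 0.0555 and 0.756. Over both alleles together it was -0.71 ± 0.16 with an adjusted p of 0.0545, and Q140 was above Q80 by 0.33 ± 0.22, a difference not separated from 0 (95% interval -0.13 to 0.78). Leaving out 1 library at a time, the adjusted p in Q80 ran from 0.0145 (without Q20 10 month F3) to 0.235, and it was also under 0.05 without Q20 10 month F4 (0.0297) or F5 (0.039).

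Mir451a was lower than controls under each of the 3 L codes that held Q80 and Q140 livers, and in both sexes. Under L2, L3 and L8, Q80 livers differed from the controls of the same code by -0.78, -0.90 and -0.73 on the log2(CPM + 1) scale, and Q140 livers by -0.48, -0.60 and -0.55. In females the differences were -0.77 and -0.71, in males -0.85 and -0.36. Q20 and WT themselves differed by 0.35 ± 0.21, with means of 1402 ± 502 and 1130 ± 465 CPM (SD, n = 8 each). In the remaining lines of that age the mean was 836 ± 204 CPM in Q92, 911 ± 206 in Q111 and 1076 ± 187 in Q175 (SD, n = 8 each), so Q80 had the lowest mean of the 7 genotypes and the order did not follow repeat length. Neighbours in this order of means lay within 1 SD of each other.

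Mir486 (ENSMUST00000093576; chromosome 8, 23142555 to 23142682, plus strand) was the most abundant of the 3. It ranged from 3138 to 5508 CPM in Q80 with a median of 3893, from 2503 to 11719 in Q140 with a median of 4195, and from 3589 to 12415 in controls with a median of 5971. All 7 Q80 livers and 7 of 8 Q140 livers lay below the control median, and the exception, Q140 10 month F3, held 11719 CPM. The log2 change was -0.74 ± 0.17 (95% interval -1.09 to -0.38) in Q80 and -0.41 ± 0.19 (-0.80 to -0.02) in Q140, with edgeR adjusted p-values of 0.0555 and 0.851. Within L codes it was -0.48, -1.08 and -0.57 in Q80 and -0.48, -0.18 and -0.63 in Q140 (L2, L3, L8) on the log2(CPM + 1) scale. By sex it was -0.66 in females and -0.72 in males of Q80, and -0.07 in females and -0.89 in males of Q140. No row was matched to the name of Mir486b, its partner on the opposite strand, and whether reads of that partner entered the Mir486 row was not tested. The Mir486 counts were whole in all 31 livers.

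Mir144 (chromosome 11, 78073005 to 78073070, plus strand) starts 165 bases before Mir451a. It ranged from 142 to 259 CPM in Q80 with a median of 157, from 148 to 379 in Q140 with a median of 200, and from 168 to 539 in controls with a median of 296. All 7 Q80 livers and 5 of 8 Q140 livers lay below the control median. So did 8 of 8 livers in each of Q92, Q111 and Q175 at that age. For Mir486, 7 of 8 livers in Q92, 8 of 8 in Q111 and 5 of 8 in Q175 lay below the control median of that precursor. The log2 change of Mir144 was -0.74 ± 0.21 in Q80 (edgeR unadjusted p of 0.00238 and adjusted p of 0.176) and -0.28 ± 0.22 in Q140 (0.23 and 0.89). Q140 exceeded Q80 by 0.47 ± 0.24 (95% interval -0.03 to 0.96). The sum of the 3 precursors had a median of 4976 CPM in Q80, 5397 in Q140 and 7459 in controls, with ranges of 3848 to 6230, 3465 to 13041 and 4542 to 14740.

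**Figure D2:**
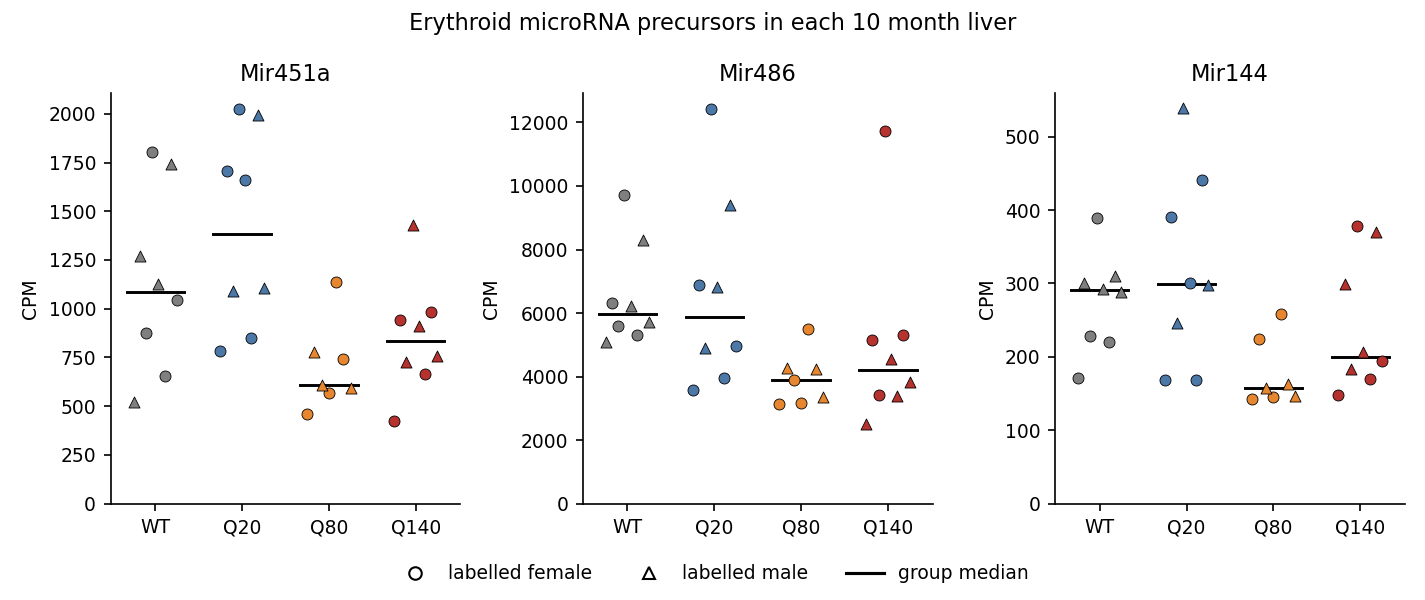
CPM of Mir451a, Mir486 and Mir144 in each of the 31 livers by group, circles for libraries labelled female and triangles for male, with the group median as a bar. The Q80 medians of 610, 3893 and 157 CPM lie below those of both control groups, and 1 Q140 liver stands at 11719 CPM for Mir486.

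Across the 16 control livers the neighbours Mir451a and Mir144 varied together, with Pearson's r of 0.671 (permutation p = 0.0042, 0.013 after Benjamini-Hochberg adjustment over 3 relations) and Spearman's rho of 0.679 (permutation p = 0.0047, 0.014 adjusted), on log2(CPM + 1) values. Without the 2 livers farthest from the median of Mir451a, r was 0.88. No relation was detected between Mir451a and Mir486 (r = 0.117, permutation p = 0.67, 0.67 adjusted; rho = 0.232, permutation p = 0.39, 0.39 adjusted; r = 0.0902 without 2 livers). For Mir144 and Mir486, r was 0.375 (permutation p = 0.15, 0.23 adjusted) and rho 0.432 (permutation p = 0.097, 0.15 adjusted), with r of 0.252 without 2 livers. These relations took no account of the L code. In controls the mean of log2(CPM + 1) was 9.903 under L3 and 10.57 under L8 for Mir451a, but 13.1 and 12.35 for Mir486. Under L2 and L8 the controls ranked alike for both precursors, and under L3 they did not. A relation within L codes was not tested, so the pooled values do not show that Mir451a and Mir486 varied apart. The table holds microRNA precursors only, and whether the livers held different amounts of blood was not tested.

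At other ages, in separate livers of the same lines, the erythroid precursors were not uniformly below controls. At 2 months 4 of 316 precursors were called for Q140 (1.27%), and Mir144 and Mir451a were among them with higher levels than controls, by 0.73 ± 0.16 and 0.58 ± 0.14 on the log2 scale and an edgeR adjusted p of 0.0459 each. Mir486 was 0.57 ± 0.24 above controls there with an adjusted p of 0.194. In Q80 at 2 months Mir451a, Mir144 and Mir486 had log2 changes of -0.16, -0.30 and 0.15, with adjusted p-values of 0.656, 0.364 and 0.752, and 0 of 316 precursors were called by edgeR (0%; 40 at an unadjusted p under 0.05, 12.7%; DESeq2 was not run). At 6 months Q20 alone served as control, and the index type in the library name (LB or V) replaced the L code as covariate. It was uneven across groups: all Q140 males of that age carried V, and most Q20 livers carried LB. In the same order of precursors, the Q80 values were 0.50, 0.43 and 0.22 and the Q140 values -0.02, -0.21 and -0.31. None of these was called, among 33 calls in Q80 (10.5% of 313) and 17 in Q140 (5.43%). The change between ages was not tested.

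**Figure D3:**
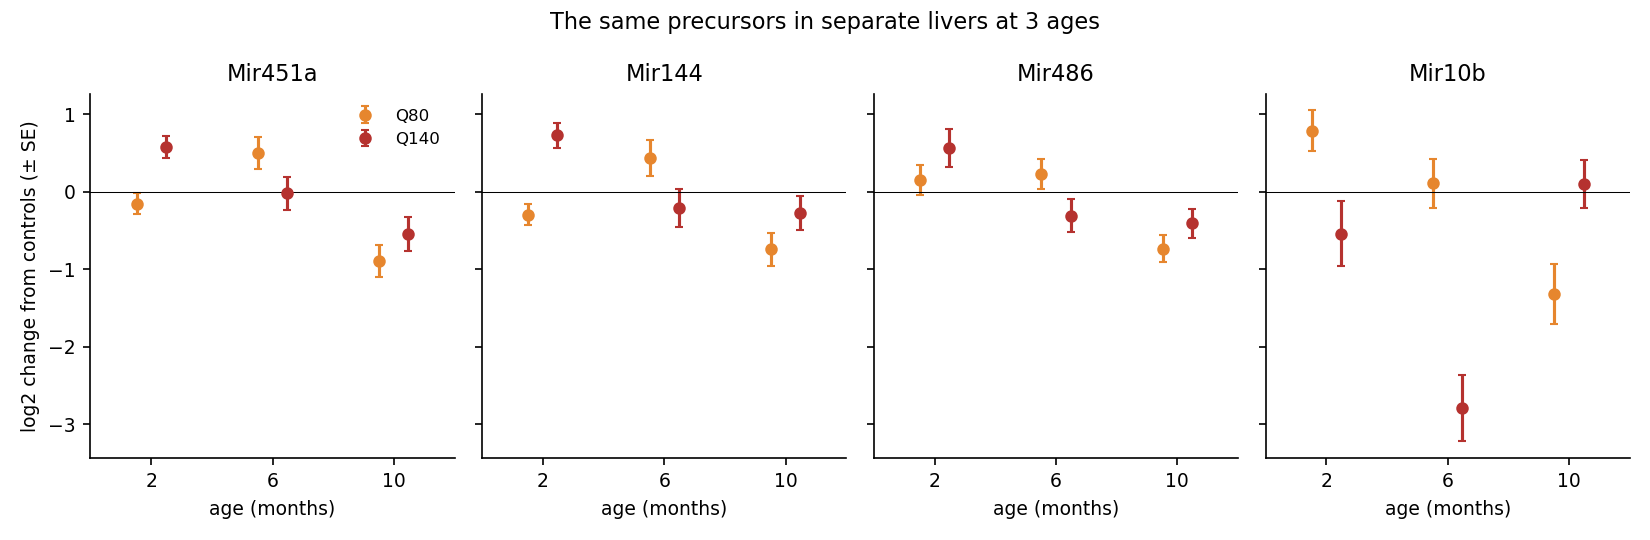
Log2 change from controls with its SE for Mir451a, Mir144, Mir486 and Mir10b in Q80 and Q140 livers of 2, 6 and 10 months, each age a separate set of mice. Mir451a and Mir144 are above 0 in Q140 at 2 months (0.58 and 0.73) and below 0 in both alleles at 10 months, and Mir10b is lowest in Q140 at 6 months (-2.79).

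Mir10b had a larger difference in Q80 and a more uneven one. Its locus, from 74726070 to 74726137 of chromosome 2, falls inside intronic sequence of the homeobox genes Hoxd3 and Hoxd4, and it is known from mesenchymal cells. It ranged from 127 to 1316 CPM in Q80 with a median of 351, from 139 to 1901 in Q140 with a median of 1147, and from 431 to 1856 in controls with a median of 793. The log2 change was -1.32 ± 0.39 in Q80 (edgeR unadjusted p of 0.0028 and adjusted p of 0.176) and 0.10 ± 0.31 in Q140 (0.758 and 0.966). All 4 Q80 females lay between 127 and 351 CPM, under the lowest control of 431, while the 3 Q80 males held 510, 579 and 1316. The Q80 difference on the log2(CPM + 1) scale was -1.93 in females and -0.28 in males, and 0.10 under code L2, which held the males, against -2.52 in L3 and -1.84 in L8. The interaction of allele and sex in Q80 was 1.92 ± 0.73 (male minus female change), with an unadjusted p of 0.0161 and an edgeR adjusted p of 0.51. In Q140 the sexes went the other way, with differences of 0.73 in females and -0.87 in males. The Q140 interaction was -1.49 ± 0.62, with an unadjusted p of 0.025 and an edgeR adjusted p of 0.92. Mir10a, which carries the same seed and had a mean of 34750 CPM, had a log2 change of 0.04 ± 0.08 in both alleles. In Q140 livers of 6 months Mir10b was called lower, by -2.79 ± 0.43 with an edgeR adjusted p of 0.00135. Its log2 change was 0.79 ± 0.27 in Q80 and -0.54 ± 0.42 in Q140 at 2 months, and 0.11 ± 0.31 in Q80 at 6 months. None of these was called (edgeR adjusted p of 0.201, 0.496 and 0.866). In the remaining lines at 10 months Mir10b ranged from 178 to 11710 CPM in Q92, 390 to 6182 in Q111 and 563 to 9481 in Q175.

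The transcript ENSMUST00000175234, which matched no gene symbol, rounded to 0 counts in all 7 Q80 livers. In controls it ranged from 0 to 8.16 CPM, and 5 of the 16 livers also rounded to 0 counts, as did 3 of 8 Q140 livers. Against a floor of 3 counts over the Q80 group, it was at least 16.1-fold lower in Q80 than the pooled control level of 2.37 CPM. Its edgeR adjusted p was 0.176, its counts were fractional in 20 livers, and its largest count in any control was 21.9.

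The other precursors below an unadjusted p of 0.05 in Q80 were Mir146, Mir150, Mir103-1, Mir184 and a transcript without a symbol, ENSMUST00000176399. Mir146, the inflammation-induced microRNA usually written miR-146a, was 0.67 ± 0.26 above controls in Q80 and 0.01 ± 0.26 in Q140. On the log2(CPM + 1) scale its Q80 difference was -0.06 under code L2, 1.60 in L3 and 0.79 in L8. The Q80 livers under L2 were all male and most L2 controls female. By sex the Mir146 difference in Q80 was 0.41 in females and 1.11 in males. Its counts were fractional in 23 livers. Mir150, a microRNA of mature lymphocytes, stood at -0.58 ± 0.24 in Q80 and -0.17 ± 0.28 in Q140. Mir103-1, from an intron of the pantothenate kinase gene Pank3, stood at -0.56 ± 0.25 and -0.31 ± 0.29, at a mean of 175.2 CPM. Its counts were fractional in all 31 livers. The other copy, Mir103-2, had a mean of 1040 CPM and stood at -0.04 ± 0.09 in Q80 and -0.06 ± 0.09 in Q140. Mir184 was 0.62 ± 0.28 above controls in Q80 and -0.14 ± 0.29 in Q140, at a mean level of 8.37 CPM. The edgeR adjusted p-values of these in Q80 lay between 0.945 and 0.985. Mir193a (-0.51 ± 0.25), Mir30b (-0.23 ± 0.11), Mir871 (-1.29 ± 0.63), Gm44453 (1.16 ± 0.56) and Mir29b-1 (0.50 ± 0.26) completed the 15 smallest p-values. Counts of Mir29b-1 were fractional in all 31 livers. Its other copy, Mir29b-2, had a mean of 71.12 CPM and stood at -0.17 ± 0.26 in Q80.

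**Figure D4:**
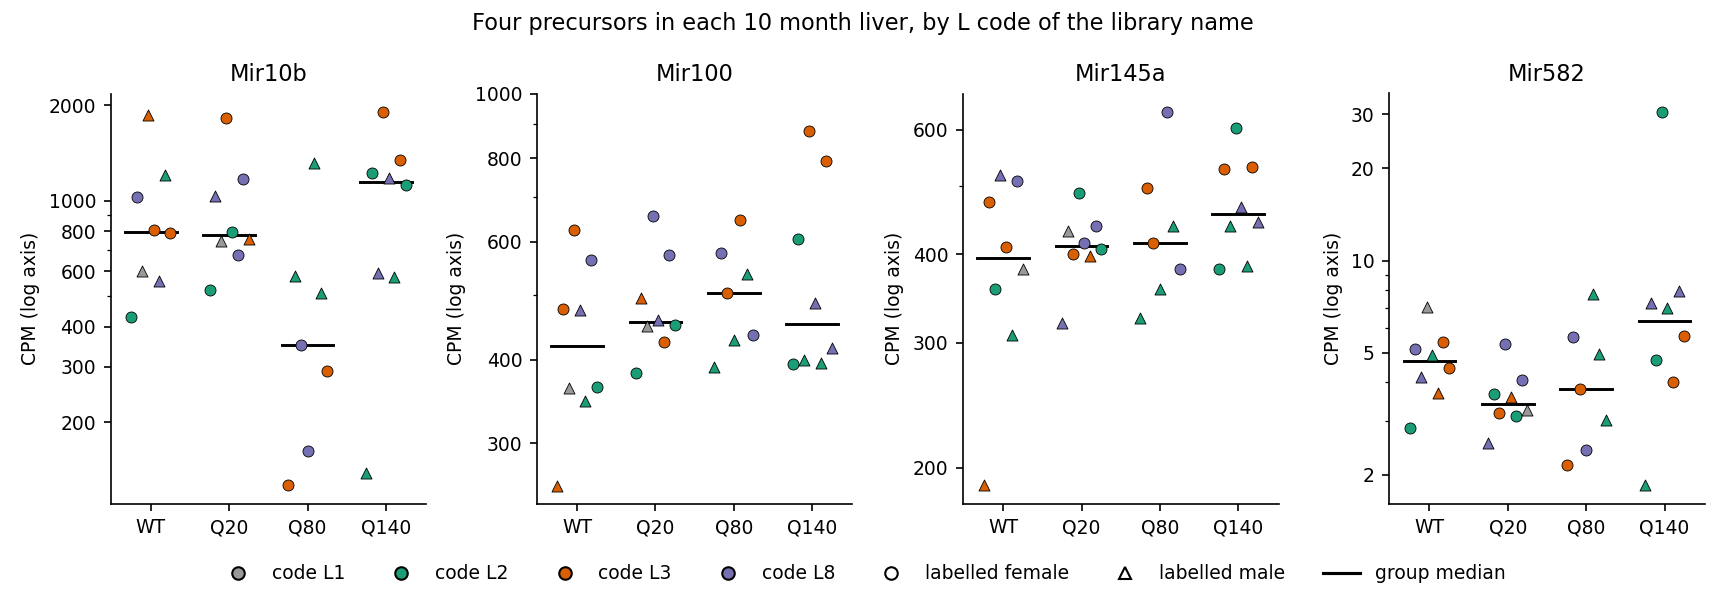
CPM on log axes of Mir10b, Mir100, Mir145a and Mir582 in each liver by group, coloured by the L code of the library name, circles for libraries labelled female, triangles for male, bars for group medians. For Mir10b the 4 Q80 females of codes L3 and L8 (127 to 351 CPM) and 1 Q140 male (139 CPM) lie below all controls, both Q140 libraries of code L3 lie highest for Mir100 (794 and 879 CPM), and 1 Q140 liver stands at 30.5 CPM for Mir582.

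In Q140 the smallest p-values belonged to precursors with small differences or low counts. Mir145a, a microRNA of smooth muscle and stellate cells on chromosome 18 (61647825 to 61647894), ranged from 382 to 604 CPM in Q140 with a median of 456, from 325 to 635 in Q80 with a median of 415, and from 189 to 517 in controls with a median of 408. The ranges overlapped, and 6 of 8 Q140 livers lay above the control median. Its log2 change was 0.30 ± 0.10 in Q140 (95% interval 0.09 to 0.52; edgeR unadjusted p of 0.00794 and adjusted p of 0.73) and 0.13 ± 0.12 in Q80. Mir143, its neighbour and partner in 1 primary transcript, stood at 0.18 ± 0.14 and 0.18 ± 0.12. The lowest control for Mir145a was WT 10 month M4.

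Mir100, Mir99b and Mir125a belong to the family of small clusters that also hold let-7 genes, and the first 2 share the seed ACCCGUA. Mir100 (chromosome 9, 41531425 to 41531504) ranged from 394 to 879 CPM in Q140 with a median of 452, from 390 to 647 in Q80 with a median of 504, and from 259 to 655 in controls with a median of 455. Only 4 of 8 Q140 livers lay above the control median. Its log2 change was 0.33 ± 0.12 in Q140 (edgeR unadjusted p of 0.00863 and adjusted p of 0.73) and 0.15 ± 0.13 in Q80. On the log2(CPM + 1) scale the Q140 difference was 0.93 under code L3, whose 2 libraries held 794 and 879 CPM, 0.20 in L2 and -0.26 in L8. Mir99b, on chromosome 17 in an intron of Spaca6, stood at 0.15, 0.94 and -0.10 under L2, L3 and L8, with a log2 change of 0.35 ± 0.15 in Q140 and 0.03 ± 0.17 in Q80. Without Q140 10 month F4 its log2 change was 0.29 ± 0.17. Mir99a, which has the same seed, stood at 0.13 ± 0.09 in Q140 and 0.00 ± 0.10 in Q80. Mir125a starts 624 bases after Mir99b and stood at 0.26 ± 0.11 in Q140, with 7 of 8 livers above the control median, and 0.03 ± 0.13 in Q80. The lowest control for Mir100, Mir99b and Mir125a was WT 10 month M4 (259, 427 and 1051 CPM). That library carries code L3 and enters the L3 differences, and changes without it are not given here.

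Mir582 and Mir379 were low in every liver. Mir582, in an intron of the phosphodiesterase gene Pde4d on chromosome 13 (109324744 to 109324824), ranged from 1.85 to 30.5 CPM in Q140 with a median of 6.35, from 2.15 to 7.79 in Q80, and from 2.54 to 7.03 in controls with a median of 3.89. Its log2 change of 1.02 ± 0.36 in Q140 (edgeR unadjusted p of 0.00972 and adjusted p of 0.73) became 0.46 ± 0.25 without the single library Q140 10 month F1, and it was 0.00 ± 0.28 in Q80. Mir379, of the imprinted Dlk1-Dio3 cluster on chromosome 12 (109709060 to 109709125), ranged from 0 to 7.22 CPM in Q140 with a median of 1.56, from 0.717 to 10.8 in Q80 with a median of 2.96, and from 0.689 to 15.1 in controls with a median of 3.61. Its log2 change was -1.16 ± 0.42 in Q140 (edgeR unadjusted p of 0.0112 and adjusted p of 0.73) and -0.46 ± 0.40 in Q80. In controls its mean was 8.14 CPM in libraries labelled male and 2.63 in those labelled female.

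Mir27b, a regulator of lipid genes and the tenth most abundant precursor, had a small difference with a small error. It ranged from 18459 to 23621 CPM in Q140 with a median of 21181, from 17728 to 28301 in Q80 with a median of 23275, and from 15693 to 26596 in controls with a median of 23040. Its log2 change was -0.14 ± 0.05 in Q140 (95% interval -0.24 to -0.03; edgeR unadjusted p of 0.0159 and adjusted p of 0.73), with 7 of 8 livers below the control median, and -0.01 ± 0.06 in Q80. Its counts were fractional in all 31 livers. Mir27a, which carries the same seed, stood at 0.01 ± 0.08 in Q140 and 0.08 ± 0.09 in Q80. Mir328 (-0.18 ± 0.07), Mir320 (-0.30 ± 0.14) and Mir1968 (-0.68 ± 0.31) were also lower in Q140 at an unadjusted p under 0.05, and Mir141 (0.52 ± 0.25) and Gm27634 (1.13 ± 0.49) higher. The transcripts ENSMUST00000175213 and ENSMUST00000174953 also lay under that threshold, and each rounded to 0 counts in at least 5 of 8 Q140 livers and 14 of 16 controls. The edgeR adjusted p-values of all of these lay between 0.73 and 0.86.

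No precursor was called between Q140 and Q80. In 1 fit of all 31 livers, edgeR called 0 of 314 precursors for Q140 against Q80 (0%), with 11 at an unadjusted p under 0.05 (3.50%) and a smallest adjusted p of 0.457, and DESeq2 called 0. The smallest p-values were those of ENSMUST00000175234, Mir298 (-1.06 ± 0.38), Mir184 (-0.79 ± 0.31), Mir582 (0.97 ± 0.40) and ENSMUST00000175140 (2.64 ± 1.10). Apart from Mir184 and Mir582 these had mean levels under 4 CPM. The largest interval among the erythroid precursors allowed Mir144 to be up to 0.96 higher in Q140 than in Q80 on the log2 scale.

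Fixed lists of microRNAs are described by their counts and medians, beside the medians of all 314 precursors, -0.03 in Q80 and -0.04 in Q140. Of the 10 hepatocyte microRNAs, among them Mir122, Mir192 and Mir148a, 0 lay under an unadjusted p of 0.05 in either contrast, and their medians were -0.04 and 0.01. The summed level of the list had a median of 598149 CPM in Q80, 604288 in Q140 and 604419 in controls. Mir192 and Mir22 held 24.4% and 19.1% of the counts on average over the 31 livers. No other tissue was compared, so the sum does not test the tissue label. Mir122, the microRNA most specific to hepatocytes, ranged from 12819 to 27319 CPM in Q80 with a median of 24152, from 9458 to 25633 in Q140 with a median of 23050, and from 8909 to 29514 in controls with a median of 23416. Its log2 change was 0.00 ± 0.13 in Q80 and -0.25 ± 0.15 in Q140, with edgeR adjusted p-values of 1 and 0.89. Mir192 and Mir22, the most abundant precursors, had 95% intervals of -0.32 to 0.26 and -0.31 to 0.27 in Q80 and of -0.28 to 0.24 and -0.39 to 0.11 in Q140.

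Of the erythroid list, 3 of 5 names were in the table and all 3 were negative in both contrasts, with medians of -0.74 and -0.41. The count of 2 erythroid members lower at an unadjusted p under 0.05 in Q140 was 1 with RLE scaling, with DESeq2, without the L code term or without WT 10 month M4. All 10 measured let-7 precursors, a family that restrains proliferation, were also negative in both, against 56.7% of all precursors in Q80 and 59.2% in Q140, but by less (medians -0.10 and -0.18), and 0 of the 10 lay under an unadjusted p of 0.05. Counts of Mirlet7f-2, Mirlet7a-1, Mirlet7g and Mirlet7c-2 were fractional in 30 or 31 livers, so let-7 rows may share reads and are not separate measurements. The summed level of the let-7 list spread from 22407 to 79744 CPM in controls, and the lowest was WT 10 month M4, the highest WT 10 month F4. Without WT 10 month M4 the let-7 median in Q140 was -0.24, and 3 of the 10 were lower at an unadjusted p under 0.05, against 15 of all 314 (4.78%) in that fit. The 9 measured members of the Dlk1-Dio3 cluster had medians of -0.21 and -0.42, with 7 negative in Q80 and 9 in Q140. Without the library labelled Q20 10 month F1 the Dlk1-Dio3 median was 0.03 in Q80 and -0.25 in Q140. The 6 microRNAs of bile duct and other epithelium (the Mir200 family and Mir205) had medians of 0.19 and 0.30 and were positive in 4 and 6 of 6, with Mir141 alone under an unadjusted p of 0.05 in Q140. That count was 3 with RLE scaling, 2 with DESeq2 and 2 without the library labelled Q20 10 month F1. Mir429, Mir200a and Mir200b all start between 156053905 and 156055681 of chromosome 4. Counts of Mir200a and Mir141 were each fractional in 29 livers, so the 6 rows are not all separate measurements.

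In the remaining lists of more than 2 measured members the medians were small. Medians in Q80 and Q140 were -0.04 and -0.02 for 15 microRNAs of sterol and lipid handling, 0.15 and 0.07 for 7 of mesenchymal cells, -0.17 and -0.12 for 7 of leukocytes, -0.01 and -0.10 for 10 of liver injury and p53 signalling, -0.05 and -0.01 for 11 of the Mir17-92 group, and -0.01 and -0.03 for 12 enriched in brain. The single endothelial precursor measured, Mir126a, stood at 0.05 ± 0.11 in Q80 and -0.03 ± 0.10 in Q140, where it was between 0.01 and 0.04 with RLE scaling, with DESeq2, without the L code term or without either doubted control library. Members under an unadjusted p of 0.05 were Mir103-1 (lower in Q80) and Mir27b (lower in Q140) of the lipid list, Mir10b (lower in Q80) and Mir145a (higher in Q140) of the mesenchymal list, and Mir146 (higher) and Mir150 (lower) in Q80 of the leukocyte list, whose members ran from -0.58 to 0.67. Mir146 is also in the injury list. Muscle precursors summed to between 1.54 and 45.4 CPM and pancreatic ones to between 2.81 and 80.9 CPM in all 31 livers, with 2 and 1 members tested and 0 under an unadjusted p of 0.05. The muscle median was -1.18 in Q80 and 0.04 in Q140, and -1.60 and -0.43 without the L code term, where both members were lower in Q80 at an unadjusted p under 0.05. The pancreatic member, Mir375, stood at 0.18 ± 0.28 and 0.50 ± 0.34.

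**Figure D5:**
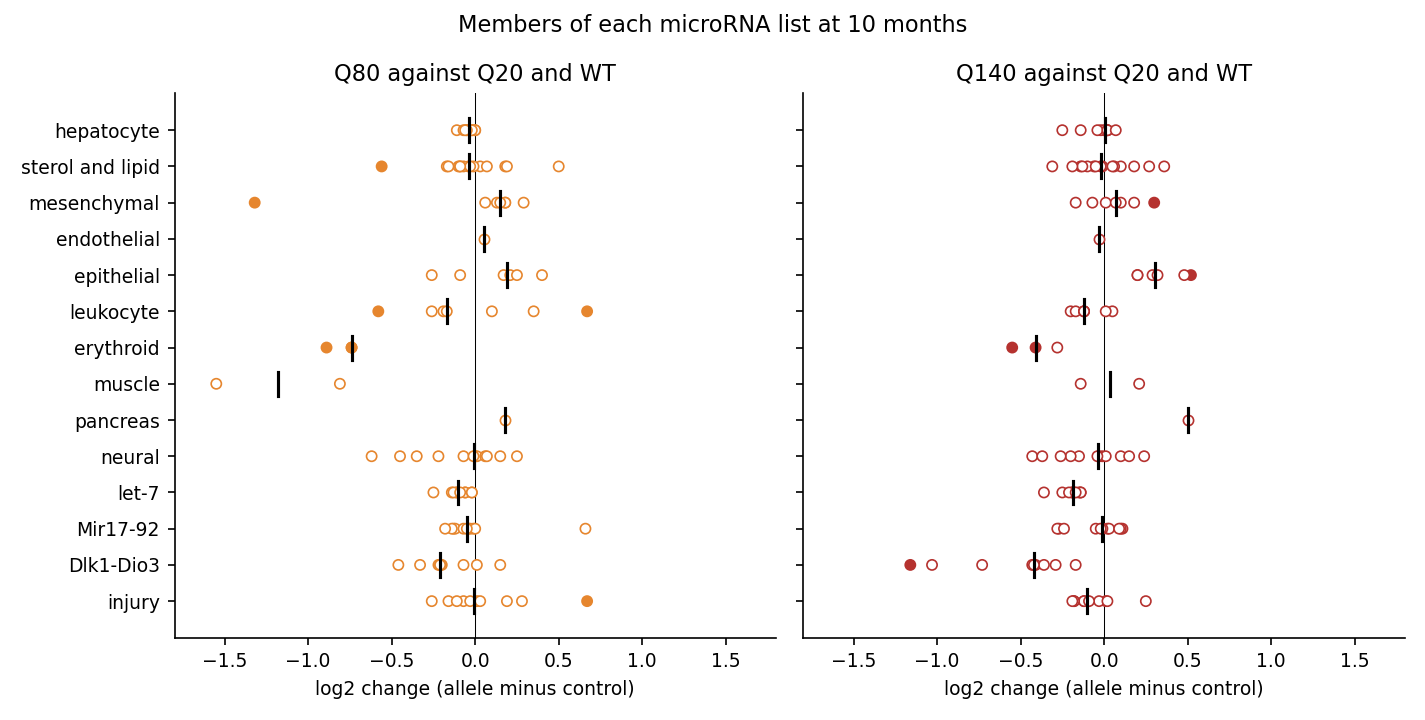
Log2 change from controls of each measured member of 14 microRNA lists, Q80 on the left and Q140 on the right, filled where the unadjusted p is under 0.05, with the list median as a bar. The erythroid members lie to the left of 0 in both panels (medians -0.74 and -0.41), and the hepatocyte members lie close to 0.

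No difference between the sexes was called in either contrast by edgeR's interaction test with Benjamini-Hochberg adjustment: 0 of 314 were called for Q80 (0%; 27 at an unadjusted p under 0.05, 8.60%) and 0 for Q140 (0%; 10, 3.18%). DESeq2 was not run for these interactions. The smallest p-values in Q80 were those of Mir615 and Mir871, with male minus female differences of 3.29 ± 0.96 and 4.04 ± 1.24 and an adjusted p of 0.51 each. For Mir451a the interaction was 0.11 ± 0.50 in Q80 and 0.02 ± 0.45 in Q140.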

How the data were processed

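Small RNA libraries of 31 livers were analysed from the authors' table of estimated counts, which the authors deposited with 1 row per Ensembl transcript of a microRNA precursor. The study's methods state that strand-specific 36-mer reads, sequenced from 1 end, were aligned to mm10 with STAR and counted with HTSeq. CASAVA 1.8.2 is named in the submitters' processing notes. Of the values above 0, 49.7% were whole, so near-identical copies may share reads. Fractional counts are stated above for some rows only. Among the other named rows, counts of ENSMUST00000176399 and Mir30b were fractional in 31 livers, Mir141 in 29, Gm27634 in 28, Gm44453 in 27 and Mir100 in 17. The design had assumed whole counts, and the estimated counts were rounded to whole numbers before every test. The deposited FPKM table was not used. Identifiers were matched to GENCODE M21 (1228 of 1626 matched). The removal of outlying samples and values described in the methods was not repeated.

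The members, lists and comparisons were chosen with earlier results of these data known. Precursors with at least 10 counts in at least 7 livers of the age were tested with edgeR 4.0.16 (R 4.3.3) by the quasi-likelihood F test with TMM factors, labelled sex and the L code of the library name (treated as a batch, though the labels do not say what it marks) as covariates and Benjamini-Hochberg adjustment over all 314. Each allele was fitted with Q20 and WT only, and Q140 against Q80, the mean and the joint test in 1 fit of the 31 livers. DESeq2, other scaling and filters, the L code term, libraries and control groups were alternatives. Precursors were named by rule: the 15 smallest p of each contrast, the 5 smallest of the other tests, the 10 most abundant, and the 4 most abundant of each list. SEs were derived from each log2 change and its F statistic. Of the 69 named precursors, 55 had an entry in the RefSeq sequence table. Each library is 1 mouse, and groups are as labelled. Total counts per library were 1.81 to 4.36 M. Without molecular identifiers, reads are not independent molecules. None of 105 pairs within groups was alike within sampling noise (smallest chi-square per degree of freedom 40.2). The scripts were tested on simulated data.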

Additional observations from a re-analysis of the deposited data

Results flagged for a closer look

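Among 48 groups of livers examined for the precursors described by liver and for the total count, 6 held a library far from its group by Dixon's criterion, and chance gives about 1 in 20. In Q140, the library F3 held 11719 CPM of Mir486, with the nearest other Q140 liver at 5304, and F1 held 30.5 CPM of Mir582, with the nearest at 7.94. In Q80, the library M2 held 1316 CPM of Mir10b, with the nearest at 579. For ENSMUST00000175234, Q80 10 month M3 held 0.148 CPM against 0.025 in the next, both 0 counts when rounded. Among controls, Q20 10 month M3 held 19738 CPM of Mir27b, below the next lowest of 22818, and WT 10 month M4 held 8909 CPM of Mir122, below the next lowest of 19403. Without Q140 10 month F3 the Mir486 change in Q140 was -0.61 ± 0.18 on the log2 scale, and without Q80 10 month M2 the Mir10b change in Q80 was -1.58 ± 0.36, neither called by edgeR. The causes were not tested.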

How the results depend on the processing

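The results on Mir451a and Mir486 sat at the threshold and moved across it. For Q80 against controls the number of calls was 0 as reported, 4 with DESeq2 (with or without its Cook's distance cutoff, which was added after seeing the data), 7 without a low-count filter (fit over 1106 precursors), 2 with the replicate block, 1 with WT alone as controls (Mir451a) and 2 with all 7 genotypes in 1 fit (Mir451a and Mir144). Leaving out 1 library at a time gave 0 to 2 calls: Mir451a and Mir486 were called without Q20 10 month F3 (adjusted p 0.0145 and 0.0327) or F4 (0.0297 each), Mir451a without F5 (0.039) and Mir486 without WT 10 month F3 (0.0324). For the mean of both alleles the count was 2 with DESeq2 under either setting, 11 without a filter, and 1 with a stricter filter of 50 counts, without the L code term, without the outlying library WT 10 month M4 or with copies summed, Mir451a each time. It was 0 to 2 when leaving out 1 library, with Mir451a called without Q140 10 month F2, F3 or M2, Q20 10 month F3 or F4, Q80 10 month M3 or WT 10 month M4, and Mir486 also without Q140 10 month F3. The joint test gave 1 call with DESeq2 under either setting, 22 without a filter and 0 to 1 leaving out 1 library. Q140 gave 5 calls, Q140 against Q80 7 and Q20 against WT 6 without a filter, and Q20 against WT 1 with DESeq2 under either setting. Leaving out 1 library gave 0 calls throughout for Q140, for Q140 against Q80 and for Q20 against WT. The cause of these differences was not tested. Of the 69 named precursors, 16 changed sign in Q80 and 11 in Q140 with RLE scaling, DESeq2, no L code term or without WT 10 month M4 or Q20 10 month F1. Their log2 changes as reported were at most 0.21 in size.

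Labels give replicate numbers by sex in every group (F1, M1 and so on). Libraries of the same number correlated at a median of 0.421 (40 of 43 pairs over 0.1), those of the same sex and another number at 0.346, and 12 of 31 correlated best with a library of their own number, so the numbers were not taken as pairs. With the replicate block, Q80 had 2 calls (Mir451a and Mir486, adjusted p 0.00963 each) and Q140 0. Without the library labelled Q20 10 month F1, the adjusted p of Mir451a and of Mir486 in Q80 was 0.0831. Without WT 10 month M4 it was 0.0987 and 0.191. With a 95% interval within 2-fold for 227 and 237 of 314 precursors, larger changes remain possible for the others, mostly those of low count.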
